A study of Mus musculus with 18 samples.

Results

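The SMAD family and the SKI corepressors, the intracellular arm of TGFβ and BMP signaling, were followed in the left ventricle of mice carrying a mutant Wwp2. The members were 10 genes chosen by symbol, Smad1, Smad2, Smad3, Smad4, Smad5, Smad6, Smad7, Smad9, Ski and Skil, out of 51435 genes in the deposited tables. All 10 passed the filter on low counts, which left 24804 genes to test. The libraries are poly(A) RNA of 18 mice on a C57BL/6J background, 9 WT and 9 WWP2Mut/Mut. WWP2Mut/Mut mice are homozygous for a CRISPR/Cas9 deletion of 4 bp within the second exon of Wwp2, which disrupts the FL and N isoforms of this E3 ubiquitin ligase and leaves the C isoform. Both genotypes received angiotensin II (AngII), a peptide hormone that raises blood pressure, by osmotic pump at 500 ng/kg/min for 28 days from 8 weeks of age, and libraries of untreated hearts were not analysed here. All values therefore describe AngII-treated hearts. The comparison asks whether the loss of Wwp2-FL and Wwp2-N moved the transcripts of the SMADs. The paper reports co-immunoprecipitation of SMAD2 with WWP2-FL and WWP2-N, and of SMAD7 with WWP2-FL and WWP2-C. Other ubiquitin ligases of the same family are also known to bind SMADs.

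TGFβ, activin and BMP ligands bind serine/threonine kinase receptors, which phosphorylate receptor SMADs. Smad2 and Smad3 carry the TGFβ and activin signal, and Smad1, Smad5 and Smad9 carry the BMP signal. Each pairs with the common partner Smad4 and enters the nucleus to regulate transcription. Smad6 and Smad7 are inhibitory SMADs that are themselves induced by the pathway, and Ski and Skil (SnoN) are corepressors that bind SMADs on DNA. In the heart this pathway is known for its part in the activation of fibroblasts and the deposition of matrix. SMAD activity is set largely by phosphorylation, ubiquitination and location, none of which RNA-seq measures.

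In GENCODE M21 on GRCm38, Skil (ENSMUSG00000027660) spans chr3:31095058-31122577 on the plus strand and Smad9 (ENSMUSG00000027796) spans chr3:54755582-54801257 on the plus strand. Ski (ENSMUSG00000029050) spans chr4:155154075-155222592 and Smad1 (ENSMUSG00000031681) spans chr8:79338395-79399518, both on the minus strand. Smad5 (ENSMUSG00000021540) spans chr13:56703010-56742377 on the plus strand. Smad3 (ENSMUSG00000032402), at chr9:63646767-63757994, and Smad6 (ENSMUSG00000036867), at chr9:63953076-64022059, lie on the minus strand with 195 kb between them.

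RefSeq promoters, from 250 bases before to 50 bases after the start on GRCm38.p6, were found for 6 of the 10 members. They were searched on both strands for the palindromic SMAD box GTCTAGAC, for the short SMAD box GTCT (AGAC on the other strand, so that 1 palindrome holds 2 short boxes) and for the GC-rich SMAD motif GGCGCC. Of 27025 mouse promoters, 0.211% held the palindrome, 88% a short box and 12% the GC-rich motif. The Smad6 promoter held the palindrome, from 4 bases before to 4 bases after the start. The first Smad5 promoter and those of Smad9 and Ski held 1 GGCGCC each. Of short boxes, 2 were found in Smad9, 1 in Smad3, 1 in this Smad5 promoter, the first of 3 in the table, and 0 in Smad1 and Ski. The Ski promoter was 85.3% G or C, more than 99.9% of all promoters, whose median was 52.7%. The promoters of Smad6, for its palindrome, and of Smad5 and Ski, whose levels varied together between mice before gene body coverage was removed (r = 0.77) and did not pass the test after it (r = 0.47), are shown 5′ to 3′ up to base 4 of the GENCODE gene, with GTCT, AGAC and GGCGCC in capitals. A match is a description of letters and not a binding site, and the GGCGCC of Smad5 lies beyond the stretch printed.
Smad6, chr9:64022056-64022309, minus strand: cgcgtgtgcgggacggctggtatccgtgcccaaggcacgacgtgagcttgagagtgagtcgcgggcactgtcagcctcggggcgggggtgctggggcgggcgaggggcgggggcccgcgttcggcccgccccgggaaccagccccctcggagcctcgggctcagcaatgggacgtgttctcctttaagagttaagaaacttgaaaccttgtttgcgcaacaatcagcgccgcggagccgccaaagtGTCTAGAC
Smad5, chr13:56702760-56703013, plus strand: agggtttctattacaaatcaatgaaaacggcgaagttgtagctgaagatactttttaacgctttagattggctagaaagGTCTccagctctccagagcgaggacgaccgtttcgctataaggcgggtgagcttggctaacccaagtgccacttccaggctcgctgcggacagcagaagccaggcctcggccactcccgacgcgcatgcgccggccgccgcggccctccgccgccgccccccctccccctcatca
Ski, chr4:155222589-155222785, minus strand: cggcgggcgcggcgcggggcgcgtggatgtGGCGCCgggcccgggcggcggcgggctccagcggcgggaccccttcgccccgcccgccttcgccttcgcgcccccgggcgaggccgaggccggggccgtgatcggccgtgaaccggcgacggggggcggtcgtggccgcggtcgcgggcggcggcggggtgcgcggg

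The targeted gene set the genotypes apart. Wwp2 was 5.09 ± 0.600 TPM (SD, n = 9) in WT and 1.72 ± 0.528 TPM (SD, n = 9) in WWP2Mut/Mut mice, with no overlap (p = 4.11e-05 by a two-sided exact permutation test, which cannot go lower with 9 against 9). Library totals ran from 24566994 to 37451087 counts and both genotypes were in each of the 4 lanes. RNA concentration differed between genotypes, at a median of 98.3 ng/µl in WT and 187 ng/µl in WWP2Mut/Mut mice (two-sided exact permutation test, p = 0.0422), and was a covariate of the fit. The WT mouse with the lowest gene body coverage is listed at 1.68 ng/µl. The gene body coverage fraction of the submitters' sample table, which the sources used here do not define, ran from 0.0288 to 0.0540 in WT and from 0.0313 to 0.0526 in WWP2Mut/Mut mice (two-sided exact permutation test, p = 0.72). The defining cardiomyocyte genes summed to 34368 to 43670 TPM over all mice. Liver genes were also present, with a summed level of 2.53 to 298 TPM in WT and 3.70 to 54.2 TPM in WWP2Mut/Mut mice, and atrial genes summed to 318 to 1181 TPM. In bulk tissue, fewer cells of a type and less RNA per cell cannot be told apart.

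The levels of the members spread over a wide range, with Ski and Smad4 at the top and Smad9 at the bottom. Levels are compared between genes in TPM, which is scaled per transcript length. Over all 18 mice, the mean was 9.41 ± 2.23 TPM (SD, n = 18) for Ski, above 62% of the 11336 genes with a mean TPM of at least 1. Ski and Smad4 could not be ordered reliably: Ski was higher in 12 of 18 mice, with a mean difference of 0.74 ± 1.49 TPM (SD). Smad4 was above Smad5 in 18 of 18 mice, 2.12 times on the means. Smad5 and Smad2 did not differ beyond their spread, with Smad5 higher in 10 of 18 mice, and neither did Smad1 and Smad7, with Smad1 higher in 11 of 18, or Smad6 and Smad3, with Smad6 higher in 12 of 18. Smad2 was above Smad1, and Smad7 above Smad6, in 15 of 18 mice, and Smad3 was above Skil in 14 of 18. Skil was 6.72 times Smad9 on the means and higher in 18 of 18 mice.

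**Figure D1:**
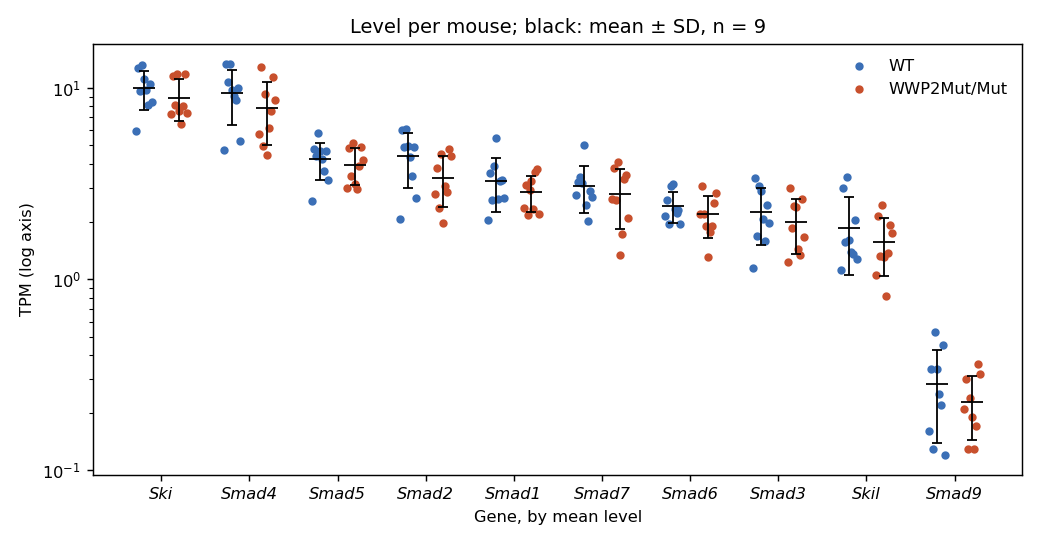
Level of each member per mouse in TPM on a log axis, ordered by mean level, with WT in blue and WWP2Mut/Mut in red. Points are mice and black bars are the mean ± SD of 9 mice. The genotypes overlap for all 10 genes, and Smad9 lies below all other members.

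Smad4, the partner shared by all receptor SMADs, was the most abundant SMAD in TPM. On TMM-normalized CPM, which is not scaled per transcript length, Smad5 was above Smad4 in most mice. Smad4 lies on chromosome 18, as Smad2 and Smad7 do. In WT mice it ran from 4.74 TPM through a median of 9.71 to 13.4 TPM, and in WWP2Mut/Mut mice from 4.48 through 7.60 to 12.8 TPM. The genotypes overlapped over almost the whole range, and the spread between mice of one genotype was larger than the distance between the genotypes. The fitted log2 fold change, WWP2Mut/Mut against WT, was -0.09 (95% interval -0.46 to 0.28). Smad4 made up 24.8% to 36.8% of the summed TPM of the 8 SMADs in a mouse.

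Of the TGFβ and activin arm, Smad2 showed the largest separation in TPM among the members. It ran from 2.06 through 4.90 to 6.13 TPM in WT and from 1.97 through 3.07 to 4.81 TPM in WWP2Mut/Mut mice, so that 9 of 9 mutant mice lay below the WT median on this scale, and 6 of 9 on TMM-normalized CPM. The difference did not pass the test (two-sided exact permutation test, p = 0.108). On CPM, where each library is scaled by its counts, p was 0.304 by the same exact test. Within lanes, the log2 ratio of mean TPM was 0.22 in lane 1, -0.46 in lane 2, -0.62 in lane 3 and -0.49 in lane 4. The fitted log2 fold change was -0.16 (95% interval -0.44 to 0.11), and limma on log2(TPM + 1), which keeps the TPM scale, gave -0.37 with an unadjusted p of 0.0775. With gene body coverage added as a covariate, the estimate was -0.081.

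Smad3 ran from 1.15 through 2.06 to 3.36 TPM in WT and from 1.23 through 1.86 to 3.01 TPM in WWP2Mut/Mut mice. The 2 distributions covered the same range, and the fitted log2 fold change was -0.0031 (95% interval -0.37 to 0.36). Within a mouse, Smad2 was 0.824 to 2.93 times Smad3, with medians of 2.01 in WT and 1.87 in WWP2Mut/Mut mice. The ratios are descriptions and were not tested.

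In the BMP arm, Smad5 was the highest and Smad9 the lowest. Smad5 ran from 2.57 through 4.38 to 5.80 TPM in WT and from 2.96 through 3.92 to 5.16 TPM in WWP2Mut/Mut mice, with a fitted log2 fold change of 0.04 (95% interval -0.19 to 0.27), the narrowest interval of the 10 genes. It was the only member with a positive estimate, and its mean TPM was lower in the mutants, so its sign differed between the scales. Smad1 ran from 2.03 through 3.27 to 5.49 TPM in WT and from 2.17 through 2.93 to 3.75 TPM in WWP2Mut/Mut mice (log2 fold change -0.15, 95% interval -0.43 to 0.14). The highest value, 5.49 TPM, belonged to WT mouse 45-1, and without this mouse the log2 fold change was -0.05, while without WWP2Mut/Mut mouse 52-1 it was -0.22.

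Smad9 was listed at 0.12 to 0.53 TPM in WT and 0.13 to 0.36 TPM in WWP2Mut/Mut mice, with medians of 0.25 and 0.21 TPM. These levels rest on 31 to 112 counts per mouse, for which counting alone gives a CV of 13.1%, against a CV of 46.1% between mice. Its log2 fold change was -0.32, with the widest interval of the 10 (95% interval -0.79 to 0.15). The value depended on the covariates, at -0.14 with none, -0.10 with lane alone and -0.07 with gene body coverage alone. Smad2 and Smad3 together were 0.539 to 1.07 times the sum of Smad1, Smad5 and Smad9 within a mouse.

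The inhibitory SMADs, which are often read as outputs of the pathway, did not separate the genotypes. Smad7 ran from 2.01 through 2.89 to 5.03 TPM in WT and from 1.34 through 2.62 to 4.10 TPM in WWP2Mut/Mut mice (log2 fold change -0.12, 95% interval -0.48 to 0.23). The highest WT mouse was again 45-1, which also had the highest liver marker sum, and without it the log2 fold change of Smad7 was -0.01, while without WWP2Mut/Mut mouse 24-3 it was -0.29. With the level of the liver markers as a covariate, it was 0.057. Smad6 ran from 1.94 through 2.29 to 3.15 TPM in WT and from 1.31 through 2.18 to 3.07 TPM in WWP2Mut/Mut mice (log2 fold change -0.08, 95% interval -0.36 to 0.20). Together, Smad6 and Smad7 were 0.243 to 0.614 times the 5 receptor SMADs.

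Ski, a corepressor that recruits histone deacetylase complexes to SMADs, ran from 5.92 through 9.74 to 13.2 TPM in WT and from 6.46 through 8.01 to 11.8 TPM in WWP2Mut/Mut mice (log2 fold change -0.09, 95% interval -0.37 to 0.19). Skil ran from 1.11 through 1.57 to 3.42 TPM in WT and from 0.82 through 1.37 to 2.44 TPM in WWP2Mut/Mut mice (log2 fold change -0.06, 95% interval -0.41 to 0.29). Skil was 0.127 to 0.259 times Ski within a mouse, with medians of 0.165 in WT and 0.171 in WWP2Mut/Mut mice. The 2 highest Skil values, 3.42 and 3.00 TPM, were those of the WT mice with the lowest gene body coverage of all, 0.0288 and 0.0295.

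Across the whole fit, edgeR's quasi-likelihood test called 0 of the 10 members at a false discovery rate (FDR) below 0.05, against a background of 0.00403% of all genes tested, which is Wwp2 alone. At an unadjusted p below 0.05 it was 0 of 10, where 3.66% of all genes passed, and DESeq2 also called 0 of 10. The estimate was below 0 for 9 of 10 members, with a median of -0.09, and for 12879 of the 24804 genes tested, with a median of -0.01. This depended on the model: with no covariates it was 9 of 10 with a median of -0.022, with gene body coverage added 6 of 10 with a median of -0.044, and with coverage alone, chosen after the data were seen, 5 of 10 with a median of -0.003. The smallest unadjusted p was 0.17, of Smad9 (adjusted p = 1 for every member, edgeR). In the exact test on TPM, 5.45% of the expressed genes had an unadjusted p below 0.05, and 0 of the 10 members did. The upper bounds of the 10 intervals ran from 0.11 to 0.36 on the log2 scale and the lower bounds from -0.79 to -0.19.

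**Figure D2:**
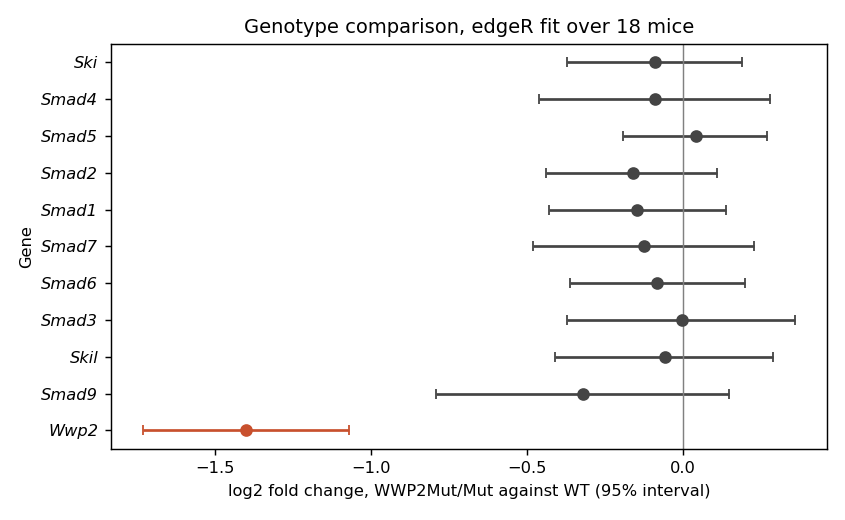
Fitted log2 fold change of each member and of Wwp2, WWP2Mut/Mut against WT, with 95% intervals from the edgeR fit over 18 mice. The intervals of all 10 members include 0, and that of Wwp2 runs from -1.73 to -1.07.

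The genotype ratio was not the same in every lane. In lane 3, which holds 2 mice of each genotype, the log2 ratio of mean TPM was below 0 for all 10 members, down to -0.97 for Skil. In lane 1, also with 2 and 2 mice, it was above 0 for 9 of 10 members, up to 0.81 for Smad3, with Smad6 at -0.45. The WT mice of lane 3 had gene body coverage fractions of 0.0288 and 0.0318 and the mutants of that lane had 0.0440 and 0.0322. In lane 1 the WT mice had 0.0540 and 0.0431 and the mutants 0.0316 and 0.0526. The part of coverage in the lane ratios was not tested.

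**Figure D3:**
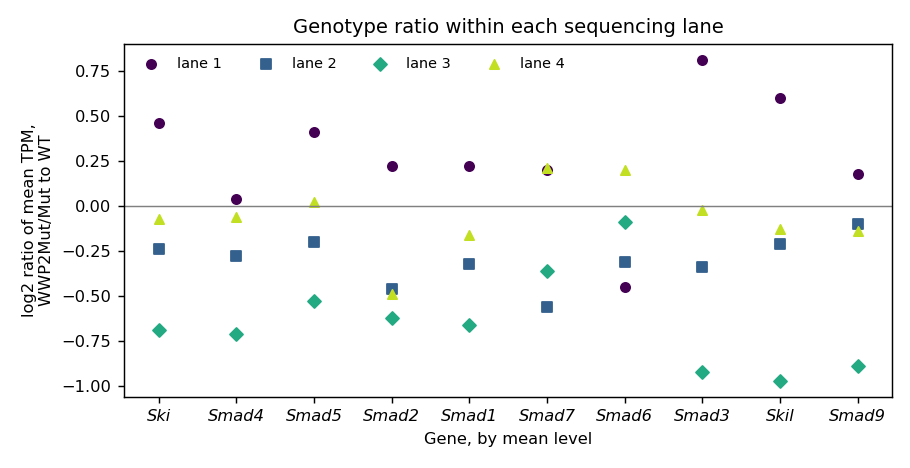
log2 ratio of mean TPM, WWP2Mut/Mut to WT, for each member within each of the 4 sequencing lanes, with 4 or 5 mice a lane. Lane 3 lies below 0 for all members and lane 1 above 0 for all but Smad6.

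The members were set against gene body coverage and RNA concentration, the measures of the sample table chosen for this. Over 18 mice, Smad4 fell as the coverage fraction rose (TMM log2 CPM, Pearson r = -0.93, permutation p = 1e-05, the smallest that 100000 resamples can give, adjusted p = 0.0001 over 20 relations; Spearman rho = -0.93, permutation p = 1e-05, adjusted p = 0.0002). Without the 2 mice farthest from the median coverage r was -0.93, and it was -0.90 within WT and -0.97 within WWP2Mut/Mut mice. Smad2 (r = -0.82, permutation p = 1e-05, adjusted p = 0.0001; rho = -0.74, p = 0.00065) and Smad5 (r = -0.79, permutation p = 0.00011, adjusted p = 0.000733; rho = -0.77, p = 0.00035) followed. Without the 2 farthest mice their r was -0.72 and -0.70.

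Both corepressors moved the same way. For Ski r was -0.73 (permutation p = 0.00094, adjusted p = 0.0047; rho = -0.77, p = 0.00039), and for Skil it was -0.69 (permutation p = 0.0015, adjusted p = 0.006; rho = -0.72, p = 0.0011). Without the 2 farthest mice these were -0.67 and -0.80. Smad9 had r = -0.60 (permutation p = 0.00852, adjusted p = 0.0284; rho = -0.70, p = 0.00152), and -0.70 without the 2 mice.

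The relation did not pass for the other 4 members. It was -0.35 for Smad3 (permutation p = 0.147, adjusted p = 0.421; rho = -0.41), -0.09 for Smad6 (permutation p = 0.735, adjusted p = 0.865; rho = -0.02), 0.13 for Smad1 (permutation p = 0.62, adjusted p = 0.775; rho = -0.02) and 0.21 for Smad7 (permutation p = 0.41, adjusted p = 0.72; rho = 0.23). Each lane holds too few mice for an r of its own. With lane means removed, r was -0.95 for Smad4, -0.83 for Smad2 and for Smad5, -0.81 for Ski, -0.82 for Skil and -0.61 for Smad9. These relations are not particular to the members, since r lay below -0.7 for 23.1% of the 11336 expressed genes and above 0.7 for 15.4%. Smad4 ranked 306 of 11336 from the most negative. None of the 10 relations to RNA concentration passed, with r between -0.01 and 0.28 and a smallest adjusted permutation p of 0.642.

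**Figure D4:**
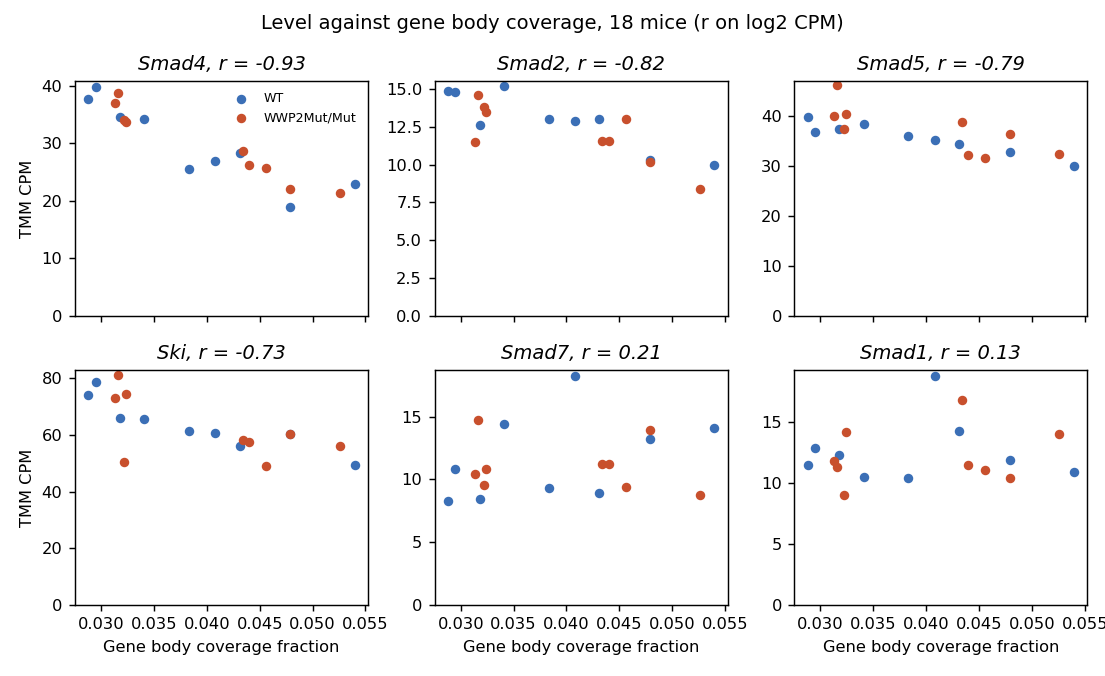
TMM CPM (y axis from 0) against the gene body coverage fraction in 18 mice, WT in blue and WWP2Mut/Mut in red, for 6 members. Smad4, Smad2, Smad5 and Ski fall from left to right in both genotypes, while Smad7 and Smad1 do not follow coverage.

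TPM followed coverage more closely than CPM did. On log2(TPM + 1), r with coverage was negative for all 10 members, from -0.93 for Smad4 to -0.35 for Smad1. The median TPM per TMM CPM over 9604 genes differed 1.64-fold between mice, with r = -0.80 to coverage, a shift shared by many genes. The counts that 1 TPM stands for carry a factor shared by all genes of a mouse, which was divided out here. What remains is an effective transcript length set by RSEM from the isoforms. It differed up to 1.89-fold between mice for Smad7, 1.43-fold for Smad4, 1.32-fold for Skil and 1.31-fold for Smad2. The median over the 9604 genes was 1.12-fold. For the other 6 members this length differed at most 1.13-fold. The isoforms themselves are not separated in the deposited tables.

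Between members, 10 of 45 pairs were correlated across the 18 mice at an adjusted permutation p below 0.05, all positively. The share of pairs that pass among other expressed genes was not tested, so this count does not set the members apart. The strongest were Smad2 with Smad4 (r = 0.79, permutation p = 0.00011, adjusted p = 0.00292; rho = 0.72, p = 0.00111), Smad5 with Ski (r = 0.77, permutation p = 0.00013, adjusted p = 0.00292; rho = 0.76, p = 0.00047) and Ski with Skil (r = 0.77, permutation p = 0.0002, adjusted p = 0.003; rho = 0.71, p = 0.00129). Without the 2 mice farthest from the median of the first gene these were 0.75, 0.65 and 0.65. Smad5 with Ski was 0.83 within WT and 0.80 within WWP2Mut/Mut mice. The other 7 pairs joined Smad4 with Smad5, Skil, Ski and Smad9, Smad5 with Skil and Smad2, and Smad3 with Ski, with r from 0.58 to 0.76. Smad1, Smad6 and Smad7 were in 0 of the 10 pairs, and Smad6 with Smad7 had r = 0.18 (permutation p = 0.466, adjusted p = 0.782; rho = 0.11).

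Of the 10 pairs, 9 joined members that both passed in their relation to coverage, and Smad3 with Ski did not. After genotype, lane and RNA concentration were removed in a linear model, 11 of 45 pairs passed, with a median r of 0.28. The permutation test made no allowance for the covariates removed, so the count of 11 may be too high. After gene body coverage was removed as well, 0 of 45 pairs passed (permutation test), the median r was 0.05, and Smad2 with Smad4 went to 0.05. Smad5 with Ski was then 0.47, Ski with Skil 0.51 and Smad3 with Ski 0.54. On log2(TPM + 1), 41 of 45 pairs passed.

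**Figure D5:**
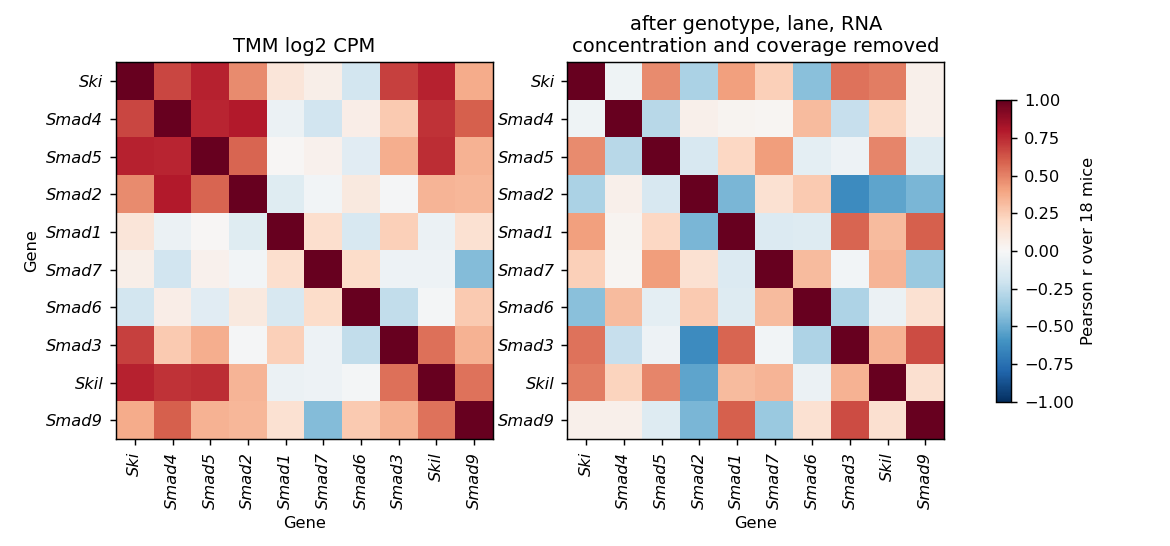
Pearson r between the members over 18 mice, on TMM log2 CPM (left) and after genotype, lane, RNA concentration and gene body coverage are removed (right). The block of Ski, Smad4, Smad5, Smad2 and Skil on the left fades on the right, where r runs from -0.63 to 0.65.

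The genes whose levels were most like those of each member, after genotype, lane and RNA concentration were removed, were ranked by r over 18 mice among the 11336 expressed genes, as a description. Smad4 was closest to Yme1l1, Cd164 and Caprin1, at r = 0.99 each, which went to 0.89, 0.87 and 0.84 once coverage was removed. Ski was closest to Nf1 (0.98, and 0.93 with coverage removed), Ttc28 (0.97, and 0.94) and Prrc2c (0.97, and 0.91). Skil was closest to Itsn2 (0.96, and 0.88), Ccdc50 (0.95, and 0.85) and Plekha1 (0.95, and 0.84). Smad2 was closest to Uxs1 (0.96, and 0.84), Maea (0.95, and 0.84) and Lap3 (0.95, and 0.85), and Smad5 to Golim4 (0.95, and 0.76), Prkd3 (0.95, and 0.80) and Akap10 (0.93, and 0.67).

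Smad7 was closest to Apex2 (0.89, and 0.90 with coverage removed), Nr1d1 (0.82, and 0.87), which encodes the circadian repressor REV-ERBα, and Rusc2 (0.82, and 0.83). Smad1 was closest to Heyl (0.88 before and after), a Notch-induced repressor of vascular cells, Itga3 (0.82, and 0.83) and Creb3l1 (0.79, and 0.80). Smad6 was closest to Magix (0.85 before and after), Nr1h3 (0.80, and 0.79) and Macrod2 (0.74, and 0.73). Smad3 was closest to Tmem94 (0.95, and 0.93), Pde4a (0.93 before and after) and Syt7 (0.92, and 0.89). Smad9, which did follow coverage, was closest to Miga2 (0.92, and 0.88), Arhgef19 (0.92, and 0.89) and Prox1 (0.89 before and after).

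The rest of the pathway was read from 9 lists of 112 genes, of which 111 were tested. Besides Wwp2, 0 were called at an FDR below 0.05 (edgeR). At an unadjusted p below 0.05, 7 passed, Wwp2 among them, and all 7 were lower in WWP2Mut/Mut mice. Over all genes tested, 3.66% had an unadjusted p below 0.05, and 638 of these 908 genes were lower and 270 higher in WWP2Mut/Mut mice. Of 15 ligands, 3 were among them. Inhba, an activin subunit, was at 0.273 ± 0.138 TPM (SD, n = 9) in WT and 0.166 ± 0.0732 TPM (SD, n = 9) in WWP2Mut/Mut mice. Tgfb2, a TGFβ ligand, was at 1.57 ± 0.532 and 1.05 ± 0.239 TPM. Gdf15, a stress-induced ligand whose part in SMAD signaling was not tested, was at 1.5 ± 0.677 and 0.848 ± 0.272 TPM. Their adjusted p was 0.927, 0.965 and 1 (edgeR), so none was called.

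Of 18 early SMAD target genes, 0 were called, and 2 had an unadjusted p below 0.05. Ccn2, which encodes connective tissue growth factor, was at 56.2 ± 19.4 TPM (SD, n = 9) in WT and 28.6 ± 8.45 TPM (SD, n = 9) in WWP2Mut/Mut mice, and 7 of 9 WT mice lay above every mutant mouse (log2 fold change -0.62, standard error 0.212, adjusted p = 0.963, edgeR). Ccn2 was named for its unadjusted p, the smallest of its list, and the share of all genes that separate as far was not tested. Ltbp2, a latent TGFβ binding protein family member, was at 2.17 ± 1.30 and 1.25 ± 0.607 TPM (adjusted p = 1, edgeR), and Klf10 was next with 3.72 ± 0.671 and 3.24 ± 0.940 TPM. The list's summed level was 283 to 422 TPM in WT and 258 to 372 TPM in WWP2Mut/Mut mice, and its median log2 fold change was -0.06.

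Bambi, a pseudoreceptor without a kinase domain, was the 1 of 8 genes of SMAD anchors and pseudoreceptor with an unadjusted p below 0.05, at 3.85 ± 0.934 TPM (SD, n = 9) in WT and 2.93 ± 0.650 TPM (SD, n = 9) in WWP2Mut/Mut mice (adjusted p = 1, edgeR). Dab2 (log2 fold change -0.22) and Lemd3 (-0.20) followed. None of 14 receptors had an unadjusted p below 0.05, the nearest being Acvr1, at 3.52 ± 1.32 and 2.99 ± 1.03 TPM (log2 fold change -0.30), Tgfbr1, the type I TGFβ receptor (-0.16), and Bmpr1b (-0.51), which was listed below 0.05 TPM on average.

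Among 15 ubiquitin ligases and deubiquitinases, Wwp2 was the only one with an unadjusted p below 0.05, followed by Stub1 (log2 fold change 0.19) and Rnf111, the ligase Arkadia that targets Ski and Skil (-0.14). Among 8 phosphatases and linker kinases, 8 transport genes, 12 tested corepressor partners and 13 coactivators and DNA-binding partners, 0 had an unadjusted p below 0.05 (edgeR). The nearest were Cdk8 (-0.15), Gsk3b (-0.22) and Pdp1 (-0.09) of the first list, and the exportin Xpo1 (-0.26), Ranbp3 (0.09) and Ipo7 (-0.16) of the second. Mecom (-0.20) and Zeb2 (-0.23) were among the nearest of the corepressor partners, of which Skor2 was at 0 in every mouse. Creb1 (-0.16), Ep300 (-0.28) and Foxo1 (0.10) led the coactivators.

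The summed levels of several lists also moved with coverage. On log2(TPM + 1), r with the coverage fraction was -0.93 for the phosphatases and linker kinases and for the coactivators, -0.91 for the anchors and -0.88 for nuclear transport, and -0.46 for the early target genes. Of the marker lists, fibroblast genes had -0.63 and cardiomyocyte genes -0.07. All 8 liver genes had an unadjusted p below 0.05 and were lower in WWP2Mut/Mut mice, and 6 of 7 fibroblast genes had an estimate below 0 (median log2 fold change -0.15), 0 of them with an unadjusted p below 0.05 (edgeR). The fibroblast genes summed to 187 to 520 TPM in WT and 218 to 410 TPM in WWP2Mut/Mut mice. Of the 6 activated fibroblast genes, 5 had an estimate below 0, 2 of them with an unadjusted p below 0.05 (edgeR), and the list summed to 82.2 to 198 TPM in WT and 73.4 to 165 TPM in WWP2Mut/Mut mice. All 5 adipocyte genes had an estimate below 0, 1 of them with an unadjusted p below 0.05, and the list summed to 0.04 to 21.4 TPM in WT and 0.22 to 11 TPM in WWP2Mut/Mut mice. In the other direction, 4 of 5 erythrocyte genes (median log2 fold change 0.17) and 4 of 5 atrial genes (median 0.11) had an estimate above 0, with an unadjusted p below 0.05 for 0 of them, and 1 of 6 smooth muscle and pericyte genes was higher at an unadjusted p below 0.05 (edgeR). With the liver marker level as a covariate, the log2 fold change was -0.24 for Smad4, -0.20 for Ski, -0.20 for Skil, -0.03 for Smad1 and -0.042 for Smad5, and 0 of the 10 members had an unadjusted p below 0.05 (edgeR). The part of the other cell types in the values of the members, and in those of the pathway genes, was not tested.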

How the data were processed

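RNA-seq of the left ventricle was available for 18 mice, 9 WT and 9 WWP2Mut/Mut, grouped by the genotype in their labels. Replicates are separate mice. The paper's results text counts fewer mice than its methods, and all 18 were used. The authors aligned reads to mouse m38 with STAR 2.5.2b and quantified Ensembl 89 genes with RSEM 1.2.31, and removed rRNA and mitochondrial genes. The deposited units are the expected count per gene, where 5.11% of values were not whole, and TPM, with sums of 671770 to 826381 per mouse. The deposited sample table adds lane, RNA concentration and a gene body coverage fraction, as given by the authors, whose definition is not given in the sources used here.

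Expected counts were rounded and tested with edgeR 4.0.16 (TMM, quasi-likelihood) in R 4.3.3. Genes needed more than 1 count summed over the mice, which 24804 had, and the covariates were RNA concentration and lane, as in the authors' model. P values were adjusted by Benjamini-Hochberg over all genes. The standard error is the log2 fold change divided by the square root of F. DESeq2 1.42.0 and limma 3.58.1 on log2(TPM + 1) or log2(TPM + 0.1) were alternatives, with other filters, size factors and covariates. TPM was compared by two-sided exact permutation tests over 48620 divisions of the mice. Correlations used TMM log2 CPM (prior count 2) and 100000 permutations in Python 3.11.15, adjusted over 45 pairs or 20 relations. Scripts were tested on simulated data. The count filter, the covariates and the scale could change a number. Counting alone gives the members a CV of 2.24% to 13.1% at their mean counts, beside a CV of TPM between mice of 21.7% to 46.1%.

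The members and lists were chosen with earlier results of these data known. Genes named are the 10 members, Wwp2, up to 3 genes of each pathway list by unadjusted p, and the 3 genes most like each member. An item that this rule names is not reported here. Symbols were matched for 51242 of 51435 identifiers. Promoters came from RefSeq and gene positions from GENCODE M21. Protein sequences were not analysed here.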

Additional observations from a re-analysis of the deposited data

Results flagged for a closer look

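Within each genotype, the highest and lowest mouse were set against the others for the 10 members and Wwp2, in 22 groups of 9 mice, with Dixon's criterion for 9 samples, which relates the gap between an extreme mouse and its neighbour to the whole spread. Chance marks about 1 in 20 groups. Smad7 in WT mouse 45-1, at 5.03 TPM, stood 0.536 of the range above the other WT mice, and this mouse also had the highest summed liver marker level. Wwp2 in WWP2Mut/Mut mouse 52-1, at 3.00 TPM, stood 0.608 of the range above the other mutant mice and stayed below every WT mouse.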

How the results depend on the processing

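The lack of a call for the 10 members held under every alternative run, whose unadjusted p stayed above 0.05 for each member. The number of genes called was 1 in most settings, and it was 2 with limma on log2(TPM + 1). With 1 mouse left out it ran from 1 to 2, being 2 without WWP2Mut/Mut mouse 1-2 and without WT mouse 84-2. The direction of the small estimates depended on the covariates. With lane alone, Smad3 was 0.0082 and Skil 0.021 on the log2 scale. With gene body coverage added, Smad2 was -0.081, Smad3 0.072, Smad4 0.046 and Skil 0.046. With coverage as the only covariate, chosen after the data were seen, Smad2 was -0.077, Smad3 0.014, Smad4 0.049, Ski 0.00074 and Skil 0.026. With the liver marker level added, Smad5 was -0.042 and Smad7 0.057, and Smad4 was -0.24, Ski -0.20, Skil -0.20 and Smad1 -0.03. With limma, Smad5 was -0.12 on log2(TPM + 1) and -0.14 on log2(TPM + 0.1), where the median of all genes was -0.105, and the ratio of its mean levels was 0.06 on TMM CPM. All 10 members were below 0 with limma. In the same order of scales, Smad2 was -0.37 and -0.46 (unadjusted p = 0.0775 and 0.0742), Smad4 -0.36 and -0.41, Smad7 -0.28 and -0.38, Ski -0.21 and -0.23, Skil -0.16 and -0.25, Smad6 -0.17 and -0.24, Smad1 -0.21 and -0.27, Smad3 -0.11 and -0.15, and Smad9 -0.09 and -0.32. With 1 mouse left out, the log2 fold change ran from -0.12 to 0.0821 for Smad3, -0.17 to 0.0202 for Smad4, -0.0183 to 0.10 for Smad5, -0.15 to 0.0155 for Smad6 and -0.12 to 0.0553 for Skil, and, with no change of sign, from -0.22 to -0.05 for Smad1, -0.23 to -0.09 for Smad2, -0.29 to -0.01 for Smad7, -0.40 to -0.24 for Smad9 and -0.17 to -0.03 for Ski. The cause was not tested. Of the pairs, 0 of 45 passed once gene body coverage was removed, and 41 on log2(TPM + 1). With coverage removed, r was -0.16 for Smad2 with Smad5, -0.28 for Smad4 with Smad5 and -0.04 for Smad4 with Ski. No paired analysis was run. The paper states that littermates were compared, but the mouse labels do not say which mice share a litter.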
